A study of Mus musculus with 38 samples.

Results

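Myeloid cells sorted from the dorsal skin of nevus-bearing mice were set against myeloid cells from normally growing skin. The nevus cells came from P56 (postnatal day 56) animals labelled mutant. In the study's mouse nevus model, Tyr-Nras Q61K, the tyrosinase promoter drives an oncogenic Nras in the pigment lineage, so the transgene is aimed at melanocytes and not at the myeloid cells profiled here. The comparison cells came from wild type mice at P30, when hair follicles are in anagen, the growth phase. Each group held 2 libraries, and 2 further libraries of wild type myeloid cells at P56, a time of telogen rest, are given beside the values. The series holds 38 libraries of 6 cell types. Of 18913 genes in the myeloid table, 15426 were protein_coding, and 10848 of these reached 1 FPKM in at least 2 of the 4 libraries compared and were tested. FPKM counts sequenced fragments, scaled to the length of the transcript and to all mapped fragments of the library, so levels can be set side by side between genes. Age and genotype differ together between the 2 groups and cannot be told apart.

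Myeloid cells of the skin are mostly resident macrophages, monocytes recruited from blood and dendritic cells. Macrophages clear dead cells and pigment, digest them in lysosomes, and hand on or store the lipid that results. Those loaded with lipid or debris, as in fatty plaques and wounds, are known for high levels of lysosomal proteases, lipid-binding proteins, the receptor Trem2 and the secreted matrix protein osteopontin. Resident dermal macrophages are known instead for scavenger and lectin receptors such as Mrc1 and Cd163.

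In nevus myeloid cells 375 genes were higher and 774 lower, or 3.46% and 7.13% of the genes tested (10.6% in either direction; limma on log2(FPKM + 1), two-sided, Benjamini-Hochberg adjusted p under 0.05 and a change of 2-fold or more). The median gene was itself lower by 0.136 on the log2 scale in the nevus libraries. After rescaling the libraries to a common median gene, a shift of 0.12, the counts were 501 higher and 552 lower. The share of calls that were higher went from 32.6% to 47.6%. All 375 genes called higher as deposited were also called higher after rescaling, and 552 of the 774 lower genes stayed lower. The study's methods speak of biological triplicates for its bulk libraries, while the series holds 2 libraries for each group used here. The labels do not tie these 2 libraries of a group to separate mice, and the p-values reflect the spread of these libraries only. Genes that reached 1 FPKM in the nevus libraries alone could enter the test only by being high there, and their values below are descriptions. They make up 134 of the 375 genes called higher, and the counts and shares below include them. Among genes named here these are Arg1, Nos2, Gdf3, Il33, Wif1, Sfrp2, Ackr3, Fcer1a, Hbb-bt, Mlana, Tyrp1 and Pmel. Camp, Ngp and Kit entered through anagen libraries alone in the same way.

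The nevus libraries also differed from anagen libraries by transcript length. Genes were split into quintiles by their longest protein-coding transcript in the GRCm38 annotation, which gave a length for 99.1% of those tested. The median log2 change was 0.27 in the shortest quintile and fell step by step to -0.51 in the longest. In the shortest quintile 7.86% of genes were called higher and 2.23% lower. In the longest quintile 1.16% were called higher and 16.6% lower. Both nevus libraries showed it: the median of the longest quintile stood at -0.49 and -0.52 against the P30 mean, while wild type P56 libraries stood at 0.19 and 0.20. After centring the values within each quintile, an alternative chosen after seeing the data, 508 genes were higher and 303 lower. The direction of the split between higher and lower calls therefore turned with this setting. The part of transcript length in each result was not tested beyond this centring. The genes below whose calls it ended are Mrc1, F13a1, Timd4, Ptprc, Mif, Inhba, Egr1, Nfkb1, Mki67, Kif23, Cstb, Fcer1a, Kit, Il7r, Rora and Slc7a11.

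**Figure D1:**
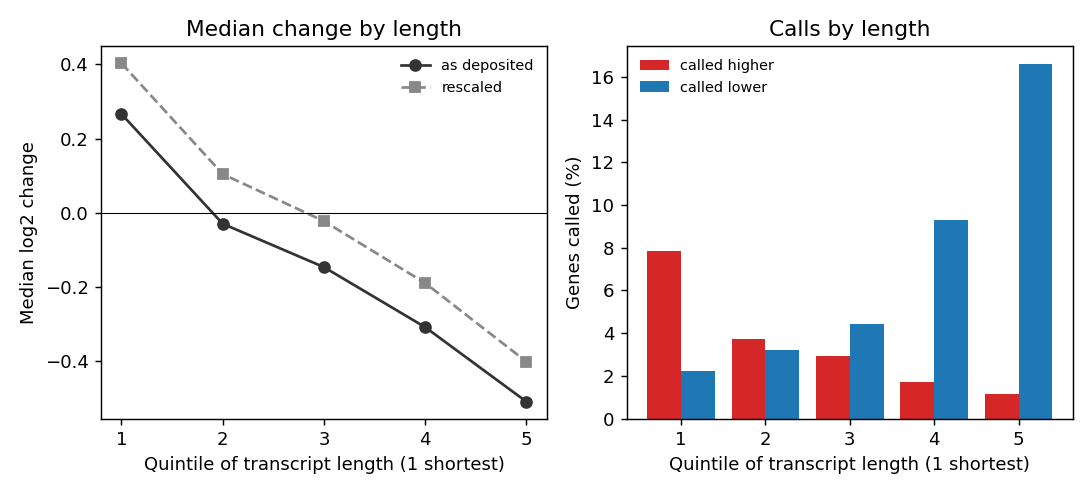
Left, the median log2 change (mutant P56 minus wild type P30) of genes in quintiles of transcript length, as deposited and after rescaling to a common median gene. Right, the percentage of genes in each quintile called higher (red) or lower (blue). The median falls from 0.27 to -0.51 and the share called lower climbs from 2.23% to 16.6% from the shortest to the longest quintile.

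Lysosome and lipid genes of foamy macrophages rose together. Of 24 listed genes, all tested, 14 were called higher and 0 lower, against 3.46% of all genes higher, and the list's median log2 change was 1.37 against -0.14 over all genes tested. Of the same 24 genes, 15 were called higher after rescaling and 14 after centring by length, where Ctsb entered and Cstb dropped out.

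Trem2, a receptor for lipids and cell debris, stood at 19.9 and 26.1 FPKM in anagen libraries and at 255 and 249 in nevus libraries. The groups were far apart, and the wild type P56 libraries (23.8 and 27.6) lay with the anagen ones. The log2 change was 3.41 ± 0.14 (SE, n = 2 libraries per group; limma adjusted p = 4.8e-05). Gpnmb, a lysosome-linked membrane protein found in lipid-laden macrophages and also in pigment cells, went from 37.8 and 38.9 to 225 and 215 FPKM, with wild type P56 at 4.90 and 4.04. Its log2 change was 2.49 ± 0.10 (limma adjusted p = 5.1e-05). The nevus libraries stood above both wild type ages.

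Cathepsin K (Ctsk), a collagen-cutting protease also used by osteoclasts, rose from 6.82 and 5.89 FPKM to 77.4 and 70.0 (log2 change 3.35 ± 0.12; limma adjusted p = 3.4e-05). Acp5, the tartrate-resistant phosphatase that marks osteoclasts, rose from 9.60 and 12.5 to 97.8 and 101 (3.06 ± 0.18; limma adjusted p = 0.00013). Atp6v0d2, a subunit of the proton pump that acidifies lysosomes, rose from 2.07 and 2.37 to 40.4 and 40.2. In none of these 3 genes did the groups overlap.

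Of the proton pump's other subunits none was called: 1 of 16 listed V-ATPase genes was higher, and it was Atp6v0d2. Among lysosomal hydrolases and membrane proteins 2 of 36 were higher (Acp5 and Ctss) and 0 lower, beside 3.46% of all genes higher, and the list's median was -0.03. This list leaves out Ctsd, Ctsl, Ctsk and Cd63, which were counted with the lipid genes and were higher. After centring by length 4 of the 36 were higher. Cathepsin S (Ctss), which trims antigens for class II molecules, went from 1540 and 1618 FPKM to 4096 and 4026. The 4 MiT/TFE transcription factors, which switch on lysosomal genes, had 0 calls by limma (2 of 4 at an unadjusted p under 0.05). After centring by length 1 of them, Mitf, was higher. Mitf is also on the list of melanocyte and pigment genes, which summed to 30.3 and 31.9 FPKM in anagen and 512 and 500 in nevus libraries. The part of pigment cells in the level of Mitf was not tested. Tfeb stood at 16.3 and 17.3 in anagen and at 16.9 and 13.5 in nevus libraries.

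Further members were cathepsin D (Ctsd), from 279 and 325 to 914 and 932 FPKM, and cathepsin L (Ctsl), from 116 and 144 to 457 and 455. The fatty acid carrier Fabp5 went from 433 and 398 to 1332 and 1323. Its relative Fabp4, also an adipocyte gene, went from 26.5 and 28.6 to 112 and 99.1. All 4 were called higher. Syngr1, a vesicle membrane protein, had the largest change of the list, from 2.51 in both anagen libraries to 87.5 and 94.1. The other 10 members were not called: Lgals3, Plin2 and Cd36, which rise in lipid-laden cells, had log2 changes of 0.19, 0.22 and 0.07, and Lpl, lipoprotein lipase, had -0.37.

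**Figure D2:**
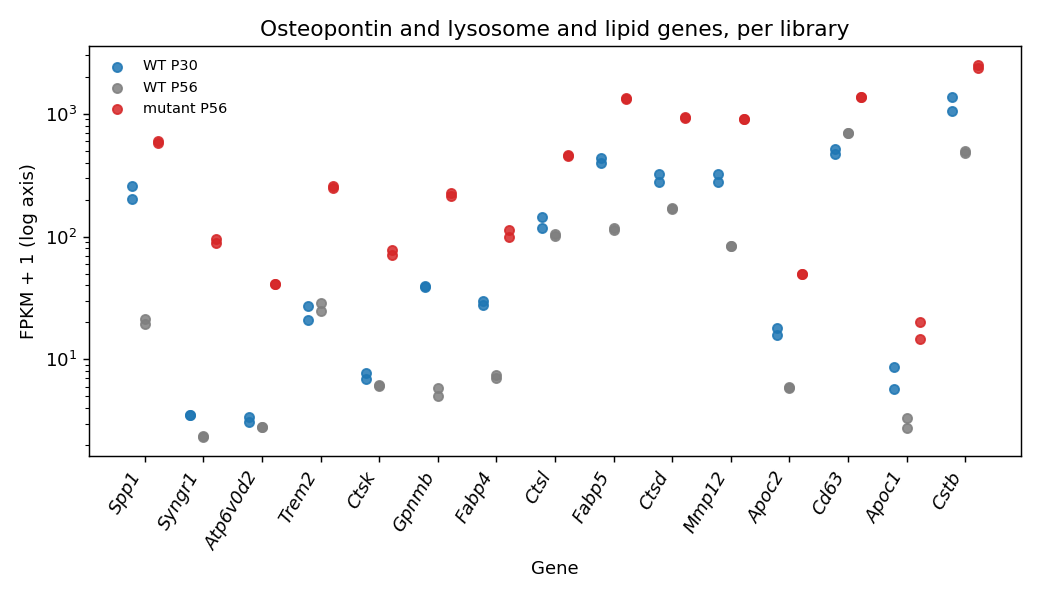
FPKM + 1 on a log axis for Spp1 and the 14 lysosome and lipid genes called higher. Each point is 1 library of wild type P30 (blue), wild type P56 (grey) or mutant P56 (red); the 2 mutant points lie above both P30 points in each of these genes.

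As background, MiT/TFE factors bind the letters CACGTG in the promoters of lysosomal genes. RefSeq promoter windows of 300 bases (GRCm38.p6) were found for 9 of the 14 genes called higher, and 2 of the 9 hold CACGTG, which reads the same on both strands, against 8.09% of the 27025 genes with a window. The 2 are Ctsl and Ctsd. Of the whole list, called or not, 16 genes had a window and 3 of them hold the letters. The windows of Ctsd, at chr7:142387778-142388077 (minus strand), and of Trem2, at chr17:48346151-48346450 (plus strand), are shown as an example with and one without the letters, which are in capitals.
Ctsd: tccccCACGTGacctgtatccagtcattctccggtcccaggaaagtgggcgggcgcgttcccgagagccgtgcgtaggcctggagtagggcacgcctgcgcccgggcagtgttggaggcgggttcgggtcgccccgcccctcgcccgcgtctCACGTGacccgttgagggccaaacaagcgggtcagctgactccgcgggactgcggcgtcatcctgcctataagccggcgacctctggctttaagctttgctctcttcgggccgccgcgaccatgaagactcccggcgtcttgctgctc
Trem2: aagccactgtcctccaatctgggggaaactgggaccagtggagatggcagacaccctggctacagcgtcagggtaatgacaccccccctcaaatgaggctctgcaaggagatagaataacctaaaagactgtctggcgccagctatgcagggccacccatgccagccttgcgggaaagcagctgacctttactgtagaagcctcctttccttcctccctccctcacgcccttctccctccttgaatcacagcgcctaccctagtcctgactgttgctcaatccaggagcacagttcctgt
A match of letters is not a binding site.

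Osteopontin (Spp1), the secreted matrix protein that the study follows as a hair growth signal, stood at 201 and 255 FPKM in anagen libraries and at 594 and 581 in nevus libraries. Its level in rest-phase wild type cells was 20.4 and 18.5. Nevus libraries were therefore highest and telogen libraries lowest, with no overlap among the 3 groups. The change against anagen was 1.37 ± 0.12 on the log2 scale (limma adjusted p = 0.00043). The gene lies at chr5:104435118-104441050 on the plus strand of GRCm38. Of 10 tested genes for osteopontin and its receptors 2 were higher and 0 lower, beside 3.46% and 7.13% of all genes. The other one called was the integrin subunit Itgb5, from 5.54 and 8.20 FPKM to 13.9 and 17.6. The call of Itgb5 was lost without anagen library 1 or without nevus library 2. Cd44, the hyaluronan receptor that also binds osteopontin, was at 245 and 241 in anagen and at 168 and 163 in nevus libraries (-0.55 ± 0.07; limma adjusted p = 0.0017), under the 2-fold limit. Cd44 is in the longest quintile, and after centring by length its adjusted p in limma was 0.997. Mmp9, a protease that cuts it, stood at 4.03 and 5.11 against 2.01 and 2.35.

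Some resident macrophage genes were lower. Of 22 tested genes of resident and alternatively activated macrophages 6 were lower and 1 higher, beside 7.13% of all genes lower, with a median of -0.64. Cd163, the scavenger of haemoglobin complexes, fell from 49.2 and 42.5 FPKM to 12.4 and 10.6 (-1.91 ± 0.11; limma adjusted p = 0.00013), and in rest-phase cells it was higher still, at 164 and 167. The lectins Cd209f and Cd209b had log2 changes of -1.79 and -1.38, and reads of this family of near copies may be split between its members. Mrc1, the mannose receptor, fell from 123 and 119 to 53 and 50 (-1.22 ± 0.08), and its change was -0.67 after centring by length, which ended the call. F13a1 and Timd4, a receptor for dying cells, were the others, and the call of Timd4 was lost on rescaling and without anagen library 1. After centring by length, 3 of the 22 genes were lower (Cd163, Cd209f and Cd209b), and F13a1 and Timd4 were no longer called.

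The riser in that list was Arg1, the arginine-cleaving enzyme of alternatively activated and wound macrophages. It stood at 0.48 and 0.41 FPKM in anagen libraries, was listed at 0 in both rest-phase libraries, and reached 22.1 and 22.4 in nevus libraries. Nos2, which competes for the same substrate, stood at 0.22 and 0.28 against 1.53 and 1.73 FPKM. The general macrophage and leukocyte markers went both ways. Of 10 macrophage markers 0 were called higher and 1 lower (Mrc1), beside 3.46% and 7.13% of all genes. Of these 10 genes 6 rose (median 0.52), and the list summed to 5219 and 5657 FPKM against 7887 and 7698. Of 10 pan-myeloid and leukocyte markers 0 were called higher and 1 lower (Ptprc). Here too 6 of 10 rose (median 0.21), with sums of 7731 and 8623 against 10922 and 11100. The 4 markers named next were among those that fell. Csf1r, the growth factor receptor of macrophages, stood at 190 and 217 against 126 and 121, Adgre1 (F4/80) at 171 and 211 against 158 and 156, and Itgam (CD11b) at 22.4 and 16.6 against 17.0 and 16.1. None of the 3 passed both limits. Ptprc (CD45) fell from 123 and 161 to 66.0 and 66.0, a call lost on rescaling, on centring by length and without anagen library 2. Lyz2 stood at 10.8 to 19.5 FPKM in the 4 libraries compared and at 9086 and 8881 in rest-phase libraries. Lyz2 has a near copy in Lyz1, so its level is uncertain. In CD45+ cells, normalised separately, Lyz2 stood at 6969 and 7412 in anagen, 2335 and 2241 in rest-phase and 13844.5 and 14457 in nevus libraries. What set the low level in these 4 myeloid libraries was not tested.

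**Figure D3:**
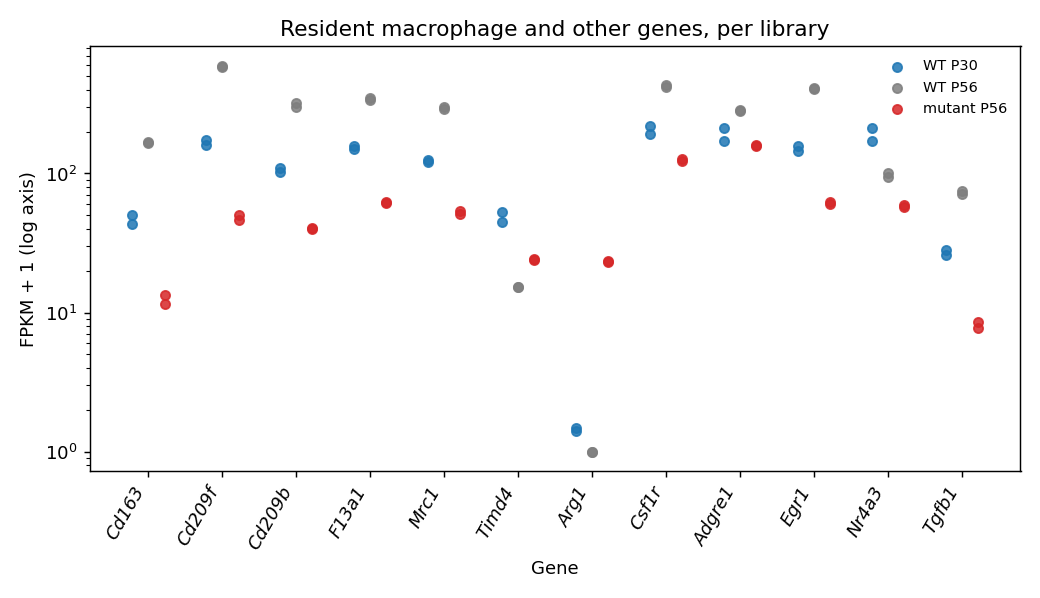
FPKM + 1 on a log axis for the 6 resident macrophage genes called lower and 6 further genes of the text, with 1 point per library of wild type P30 (blue), wild type P56 (grey) and mutant P56 (red). Cd163 stands at 10.6 to 12.4 FPKM in mutant libraries, and Arg1 is higher in mutant libraries than in either wild type age.

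Several secreted signals changed, in both directions. Of 18 tested CC and CX3C chemokines 5 were higher and 1 lower, beside 3.46% and 7.13% of all genes. Of the 18 genes 15 are in the shortest quintile of transcripts, and 3 (Ccl5, Ccl17 and Ccl19) were higher after centring by length. Ccl17, which draws T cells, rose from 44.4 and 47.0 FPKM to 223 and 202 (2.19 ± 0.09; limma adjusted p = 4.9e-05), and Ccl5 from 257 and 255 to 747 and 813. Ccl12, a monocyte attractant with close relatives, fell from 279 and 314 to 126 and 134. The receptor Ccr1, which binds Ccl5, rose from 32.5 and 36.8 to 98.9 and 99.1. Of 11 tested CXC chemokines 3 were higher (Cxcl12, Cxcl9 and Cxcl14) and 1 lower, beside 3.46% and 7.13% of all genes. Cxcl1 was lower as deposited, a call lost on rescaling and without anagen library 1.

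Among 26 tested interleukins and inflammatory cytokines 4 were higher (Ifnb1, Il1f9, Il33 and Mif) and 0 lower, beside 3.46% and 7.13% of all genes. The call of Mif was lost on centring by length and without anagen library 2. Ifnb1, an antiviral interferon, stood at 20.9 and 12.2 FPKM in anagen, 0.24 and 0.41 in rest-phase and 83.4 and 79.2 in nevus libraries. Il1b, the main inflammatory interleukin of macrophages, stood at 3097 and 2212 against 2084 and 2045 and was not called (-0.34 ± 0.15; limma adjusted p = 0.10). Tnf (120 and 97.4 against 95.8 and 98.3) and Osm (108 and 123 against 92.1 and 92.4) were not called. Of 25 cytokine receptors 5 were lower and 0 higher, beside 7.13% and 3.46% of all genes. Il6ra went from 17.6 and 25.1 to 5.97 and 6.22. Of the 25 genes 9 are in the longest quintile of transcripts, and Il6ra was the 1 gene still lower after centring by length.

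Growth factors and WNT genes were at low levels for the most part. Of 20 growth factors tested, Gdf3 was higher, at 0.32 and 0.41 against 5.75 and 5.86 FPKM. Tgfb1, a matrix-promoting and immune-damping factor, fell from 25.1 and 27.1 to 6.71 and 7.50, with rest-phase libraries at 69.8 and 74.4. Inhba, a subunit of activin, fell from 97.7 and 137 to 40.3 and 41.6, a call lost on centring by length. Igf1, a growth signal to hair follicles, was at 162 and 166 against 241 and 243, under the 2-fold limit, and was called higher after centring by length (1.11; limma adjusted p = 0.00013). The list as a whole had 1 higher and 3 lower genes as deposited, beside 3.46% and 7.13% of all genes. After centring it had 4 higher and 1 lower. Wnt11 fell from 127 and 136 to 45.2 and 40.2, and Wnt7b and Wnt10a were under 1 FPKM in all 6 libraries. The WNT antagonist Dkk3 was higher, at 0.72 and 1.17 against 7.48 and 7.21. Wif1 (0.73 and 0.25 against 2.50 and 3.09) and Sfrp2 (0 and 0.40 against 1.67 and 1.93) stood at low levels in both groups, and the call of Sfrp2 was lost without anagen library 1.

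Of 23 tested matrix metalloproteinases and their inhibitors 7 were higher and 1 lower, beside 3.46% and 7.13% of all genes. After centring by length 9 were higher and 0 lower. Mmp12, macrophage elastase, rose from 321 and 275 FPKM to 912 and 904 (1.61 ± 0.09; limma adjusted p = 0.00011). Mmp14 rose from 11.6 and 12.4 to 35.5 and 37.4, and the inhibitor Timp1 from 19.7 and 18.2 to 54.4 and 55.1. Mmp2 and Mmp3, which fibroblasts also make, were under 13 FPKM in nevus libraries.

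A minority of stimulus-response genes were lower. Of 30 immediate early and dissociation-linked genes 5 were lower and 0 higher (median -0.61), beside 7.13% of all genes lower, and of 20 NF-kB genes 5 were lower and 1 higher (median -0.71). Nr4a3 fell from 170 and 210 FPKM to 58.7 and 56.8, and Egr1 from 145 and 157 to 59.0 and 61.6. Egr1 stood at 406 and 412 in rest-phase libraries. After centring by length 3 of the 30 and 2 of the 20 genes were lower, and the calls of Egr1 and Nfkb1 were lost. Tnfaip6, a secreted hyaluronan-binding protein, was the NF-kB list's riser, from 2.86 and 2.64 to 24.4 and 25.

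Among cell cycle genes, Mki67 went from 3.56 and 2.96 to 0.82 and 1 FPKM, and 2 of 25 mitosis genes were lower, close to the 7.13% of all genes, with a list median of 0.01. Both calls, of Mki67 and Kif23, were lost after centring by length, which left 1 mitosis gene higher (Mad2l1) and 0 lower. No DNA replication gene of 26 was called by limma, with 6 at an unadjusted p under 0.05. Cdkn2b, an inhibitor of the cell cycle that is linked to senescence, stood at 1.02 and 2.97 against 7.21 and 5.45, a call lost without anagen library 1 or nevus library 1. Nras, the transgene's parent gene, stood at 32.9 and 35.9 in anagen and at 47.2 and 46.9 in nevus libraries (0.44 ± 0.09; limma adjusted p = 0.0074). Whether reads of the transgene enter this value was not tested. None of 24 ribosomal protein genes, 29 oxidative phosphorylation genes or 18 glycolysis genes was called, and their medians were 0.18, 0.43 and 0.29. At an unadjusted p under 0.05 limma had 4 of the 24, 18 of the 29 and 11 of the 18, and after rescaling 1 oxidative phosphorylation gene and 2 glycolysis genes were called higher. Of those 29 genes 17 are in the shortest quintile of transcripts.

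Outside the lists, the largest falls included long transcripts. Atrx, a chromatin remodeller, fell from 42.1 and 51.8 FPKM to 7.18 and 6.62, and Ccdc88a from 10.7 and 12 to 1.06 and 1.07. Both are in the longest quintile. Both kept their calls after centring by length, at -2.05 and -2.03 on the log2 scale. Erdr1 and Gm21887 had log2 changes of -2.76 and -3.42, but these are near copies of each other and their levels are uncertain.

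Genes of other cell types moved with the comparison. The 3 largest rises among genes with a mean of 5 FPKM or more were those of the pigment genes Mlana, Dct and Tyrp1. Mlana went from 0.87 and 0.64 FPKM to 179 and 176, and Dct from 1.03 and 0.85 to 169 and 164. Of 14 tested melanocyte genes 10 were higher, beside 3.46% of all genes. Kit, which mast cells also use, was the 1 that was lower, beside 7.13% of all genes. The call of Kit was lost on centring by length. Mlana, Tyrp1, Pmel and others of the 10 entered the test through nevus libraries alone, so this count is a description. The 16 listed genes summed to 30.3 and 31.9 FPKM in anagen, 26.3 and 26.4 in rest-phase and 512 and 500 in nevus libraries. Globin genes rose too, the erythroid and platelet list summing to 24.0 and 33.5 against 188 and 175, and their near copies share reads. Fibroblast markers summed to 403 and 518 against 959 and 917, with Dcn rising from 43.3 and 51.8 to 189 and 186. Of 8 tested hair shaft and root sheath genes 6 were higher, all of them keratins, beside 3.46% of all genes. The list summed to 18.3 and 23.3 against 69.3 and 61.8.

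Most mast cell genes were lower. Of 12 listed, all tested, 9 were lower, beside 7.13% of all genes. Fcer1a was the 1 that was higher (0.82 and 0.33 against 2.27 and 2.85 FPKM), beside 3.46% of all genes. The call of Fcer1a was lost with a pseudocount of 5 and on centring by length. After that centring 8 of the 12 were lower and 0 higher. The list's sum fell from 913 and 953 FPKM to 158 and 163. Cpa3, a mast cell protease, fell from 197 and 252 to 24.8 and 24.8, and rest-phase libraries stood at 16.0 and 17.3. S100a8 and S100a9, abundant in neutrophils and also induced in other myeloid cells, rose from 139 and 129 to 502 and 531 and from 179 and 112 to 364 and 368, while Ngp and Camp, neutrophil granule genes, were lower and at under 1 FPKM in nevus libraries. The neutrophil list summed to 357 and 285 against 889 and 921, but without S100a8 and S100a9 its 11 other genes summed to 39.3 and 43.4 against 22.7 and 22.2. The part of these cell types in the gene results above was not tested. In bulk libraries fewer cells of a type and less RNA per cell cannot be told apart.

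**Figure D4:**
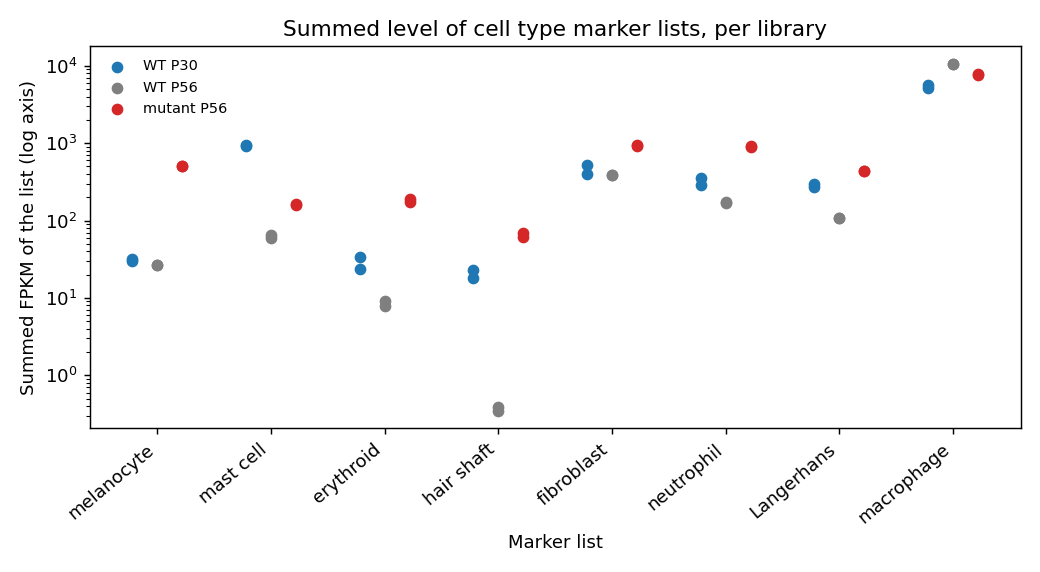
Summed FPKM of 8 marker lists on a log axis, with 1 point per library of wild type P30 (blue), wild type P56 (grey) and mutant P56 (red). Melanocyte markers sum to 500 to 512 FPKM in mutant libraries against 26.3 to 31.9 in wild type libraries, and mast cell markers are lower in mutant than in P30 libraries.

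CD45+ immune cells of the same ages and genotypes give a second measurement in other libraries. Sex-linked genes differed in that comparison. The Y chromosome gene Ddx3y stood at 5.67 and 5.21 FPKM in CD45+ anagen libraries and at 0 in CD45+ nevus libraries. It was at 0 in all myeloid libraries. All 3 sex-linked genes tested in CD45+ cells were lower, and the part of sex was not tested. Of the genes called higher in myeloid cells and tested in both tables, 111 of 312 (35.6%) were also higher in CD45+ cells, where 9.70% of the genes tested in both were higher. These 111 make up 10.9% of the 1021 genes higher in CD45+ cells and tested in both. Of the genes lower in myeloid cells 86 of 755 (11.4%) were also lower, where 6.64% of all were lower, and they were 12.3% of the 699 genes lower in CD45+ cells and tested in both. In the opposite direction, 34 of the 312 were called lower in CD45+ cells and 45 of the 755 were called higher there. Across genes tested in both, the log2 changes had a Pearson correlation of 0.244. In CD45+ cells 18.2% of genes were called in either direction. The CD45+ comparison also moved with transcript length, with 19.9% of genes higher in its shortest quintile and 4.93% in its longest, and the part of length in the shared calls was not tested. Shared risers include Spp1, Trem2, Gpnmb, Ctsk, Acp5, Atp6v0d2, Mmp12 and Arg1. Their log2 changes in CD45+ cells were 4.29, 2.28, 1.79, 2.14, 2.99, 2.4, 5.89 and 3.85. The pigment genes Mlana, Tyrp1, Pmel and Dct stood at -0.48, -0.66, -1.47 and 0.32 there. Of 11 melanocyte genes tested in CD45+ cells, 1 was called higher and 3 lower. The part of pigment cells in the shared rises was not tested.

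The wild type P56 level was set beside the called genes as a description, since the comparisons share libraries. The wild type groups differ in age as well as in hair cycle phase. Of the 375 genes higher in nevus cells, the rest-phase mean was nearer to the anagen mean in 324 (86.4%), and of the 774 lower genes in 586 (75.7%), against 64.7% of all genes tested. For 206 of the higher genes the rest-phase mean was below the anagen mean, for 156 between the other 2 means and for 13 above the nevus mean. For 388 of the lower genes it was above the anagen mean, for 281 between the other 2 and for 105 below the nevus mean. The same positions were not counted over all genes tested.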

How the data were processed

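Dorsal skin was digested and cells were sorted, and the gate for myeloid and CD45+ cells was not given in the sources used here. Full-length cDNA libraries were sequenced in pairs by the authors, who mapped reads to mouse mm10 (GRCm38) by STAR 2.4.2 and took FPKM from RSEM. The deposited FPKM values carry no stated scaling between libraries, and summed to 829591 to 903005 per myeloid library. The study's methods give only an average range of depth for its bulk libraries. With no read totals per library, the depth of each one is unknown. A search for the steps of whole reads put at most 1.85% of low genes in 1 bin, so no counts were recovered. Spreadsheet-damaged symbols, 23 in the myeloid table, were restored from gene identifiers.

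Values of log2(FPKM + 1) were modelled in limma 3.58.1 (R 4.3.3) over 6 libraries, 1 mean per group with a variance trend, for protein_coding genes with 1 FPKM or more in at least 2 of 4 libraries. This differs from the count test in the study's methods, which needs counts. Fold changes on this scale understate those of low genes. The fit was tested on simulated data. Of the genes tested, 287 reached 1 FPKM in nevus libraries only (134 called higher) and 384 in anagen libraries only (90 called lower). Replicates correlated at 0.987 (P30), 0.995 (P56 wild type) and 0.993 (mutant) across genes. Genes were named by size of change (15 rises and 15 falls with a mean of 5 FPKM or more and no overlap), by list (up to 4 called members each) and from a fixed set. Genes such as Lgals3, Mmp14 and Timp1 were added after their values were seen. The members and the 64 gene lists were chosen with earlier results of these data known. Alternatives were other pseudocounts, filters, scalings, 4 libraries only, lncRNAs, a replicate block and each library left out. Python 3.11.15 was used for tables.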

Additional observations from a re-analysis of the deposited data

Results flagged for a closer look

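Genes called in opposite directions in myeloid and in CD45+ cells, with no overlap of libraries in either, were singled out among the named genes. The difference itself was not tested, because the tables were normalised separately. The log2 changes in myeloid cells come first and those in CD45+ cells second. The 4 globin genes rose in one and fell in the other: Hbb-bt 3.43 and -2.76, Hbb-bs 2.76 and -2.84, Hba-a2 2.63 and -2.89, Hba-a1 2.19 and -3.19. Pmel, a pigment gene, stood at 4.02 and -1.47. Mfge8, a bridge to dying cells that Langerhans cells also express, stood at 1.49 and -3.49, Ackr3 at 1.37 and -1.17, and Scara5 at 1.04 and -1.03. The mast cell protease Cpa3 stood at -3.12 and 1.08. Of immune genes, Ccr8 was at -1.10 and 3.38, Il7r at -1.20 and 1.36, Iigp1 at -1.29 and 1.49 and Siglech at -1.53 and 1.11. The myeloid call of Ccr8 was lost on rescaling and without anagen library 2, and that of Il7r on centring by length. The transcription factors Rora (-1.39 and 1.36) and Pparg (-1.10 and 1.52) and the cystine transporter Slc7a11 (-1.12 and 1.52) were also opposite. The myeloid calls of Pparg and Slc7a11 were lost on rescaling, and those of Rora and Slc7a11 on centring by length. The call of Scara5 was lost without anagen library 1 or nevus library 1.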

How the results depend on the processing

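The count of 1149 myeloid genes became 1847 with a pseudocount of 0.1, 399 with a pseudocount of 5 and 4859 with no fold limit. The other settings gave counts within 1.5 times it. Leaving out 1 library at a time gave 1139 to 1398 genes, highest without anagen library 1. The CD45+ count of 2237 was 2238 to 2265 with 1 library left out. No named gene that was called changed direction under any setting run. With the replicate number as a block, 1156 myeloid genes and 2240 CD45+ genes were called and no named gene changed its call. The numbers were not shown to pair libraries, with a correlation of deviations of 0.016 between anagen and nevus libraries. Of 187 named genes, 47 lost their call with a pseudocount of 5, 13 on rescaling, 13 on quantile normalisation and 27 on centring within quintiles of transcript length, which gave 811 genes. Unknown depth of each library, 2 libraries per group and an age that differs with genotype limit all of these results.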
